A study of Homo sapiens with 4 samples.

Results

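The HOX cluster genes encode homeodomain transcription factors and lie side by side in the HOXA, HOXB, HOXC and HOXD clusters. They were measured here in KGN, a cell line established from a human granulosa cell tumour of the ovary. Members were the genes whose symbol is HOX, a cluster letter and a number, read by probe sets of the Affymetrix HG-U133 Plus 2.0 array that carry that symbol alone. This gave 28 HOX genes and 44 probe sets among 19775 genes, with 15 genes read by 1 probe set and 13 by several. Where several were present, the one with the highest mean log2 value, after low values were raised to a floor, stood for the gene. Chosen by mean intensity, 1 gene (HOXB13) would have had another probe set, which was below that floor on all arrays. The members were 1 gene of HOXA (HOXA2), 10 of HOXB, 9 of HOXC and 8 of HOXD. A RefSeq table lists 39 protein-coding HOX symbols. The other 11 (10 in HOXA, and HOXD3) had no probe set with their symbol alone in the annotation used, and were not analysed here.

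The study crossed knockdown of YAP and TAZ, the transcriptional co-activators restrained by the Hippo pathway, with 8Br-cAMP, an analogue of cyclic AMP that enters cells. The 4 groups held 1 array each. Control siRNA was used at 10 nM without (siNC) or with 0.5 mM 8Br-cAMP (siNC+8Br-cAMP), and YAP and TAZ siRNAs at 5 nM each without (siYT) or with 0.5 mM 8Br-cAMP (siYT+8Br-cAMP). All cells were a single line in serum-containing medium that was changed 48 h after transfection and left for 24 h, so the control arrays carried siRNA too. No difference below has a replicate, and sizes are given without p-values apart from 1 additive fit. In bulk RNA, fewer cells with a transcript and less transcript per cell cannot be told apart.

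HOX genes are arranged along each cluster in the order in which they act along the body axis, and genes at the same place in different clusters form paralog groups, numbered from the anterior (group 1) to the posterior end (group 13). Their products bind DNA with TALE homeodomain partners of the PBX, MEIS and PKNOX families. Adult cells often retain the HOX pattern of the place where their tissue arose, held by Polycomb repression and Trithorax activation, and retinoic acid is a classic inducer of anterior genes. In the female reproductive tract, posterior HOX genes are best known for patterning the oviduct, uterus and cervix.

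YAP works through TEAD factors, whose binding core is written GGAATG, and cyclic AMP through CREB, whose full element is TGACGTCA with the core TGACG. Promoter sequences are shown because these motifs bear on the 2 treatments. The RefSeq table (GRCh38.p14) held a window from 250 bases before to 50 after the start for 11 of the 28 HOX genes, in 10 distinct windows since HOXC4 and HOXC5 share 1. Capitals mark GGAATG and TGACG on either strand, read as CATTCC and CGTCA on the other strand, and the windows shown are on the plus strand, 5′ to 3′. Shown are HOXD10, HOXD8, HOXD4 and HOXD11, whose values are followed below, and the window shared by HOXC4 and HOXC5. They lie at chr2:176116528-176116827 (HOXD10), chr2:176129455-176129754 (HOXD8), chr2:176151300-176151599 (HOXD4), chr2:176107030-176107329 (HOXD11) and chr12:54016638-54016937 (HOXC4 and HOXC5), each spanning the annotated transcription start.
HOXD10: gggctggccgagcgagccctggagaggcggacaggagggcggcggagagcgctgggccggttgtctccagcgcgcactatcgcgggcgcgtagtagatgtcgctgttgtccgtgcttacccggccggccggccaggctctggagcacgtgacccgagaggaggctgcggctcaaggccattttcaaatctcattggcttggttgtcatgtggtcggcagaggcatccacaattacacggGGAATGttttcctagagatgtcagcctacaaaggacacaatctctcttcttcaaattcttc
HOXD8: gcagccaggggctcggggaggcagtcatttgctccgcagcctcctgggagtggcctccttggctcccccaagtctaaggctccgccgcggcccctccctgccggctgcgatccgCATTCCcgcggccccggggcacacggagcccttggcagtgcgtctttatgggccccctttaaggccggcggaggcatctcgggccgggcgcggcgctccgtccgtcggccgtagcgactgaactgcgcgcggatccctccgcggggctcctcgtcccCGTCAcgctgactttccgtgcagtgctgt
HOXD4: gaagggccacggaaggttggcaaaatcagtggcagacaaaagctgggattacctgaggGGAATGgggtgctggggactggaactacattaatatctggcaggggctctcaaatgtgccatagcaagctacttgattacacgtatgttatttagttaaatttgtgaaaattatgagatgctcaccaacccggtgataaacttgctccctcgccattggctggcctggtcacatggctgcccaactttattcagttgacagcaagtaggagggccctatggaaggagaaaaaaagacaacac
HOXD11: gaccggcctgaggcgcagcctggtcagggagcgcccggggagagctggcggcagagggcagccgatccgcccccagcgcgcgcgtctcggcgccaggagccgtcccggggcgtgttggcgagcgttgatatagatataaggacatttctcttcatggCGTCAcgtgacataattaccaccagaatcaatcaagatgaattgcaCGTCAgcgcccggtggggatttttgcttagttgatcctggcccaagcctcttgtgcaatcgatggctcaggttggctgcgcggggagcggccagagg
HOXC4 and HOXC5: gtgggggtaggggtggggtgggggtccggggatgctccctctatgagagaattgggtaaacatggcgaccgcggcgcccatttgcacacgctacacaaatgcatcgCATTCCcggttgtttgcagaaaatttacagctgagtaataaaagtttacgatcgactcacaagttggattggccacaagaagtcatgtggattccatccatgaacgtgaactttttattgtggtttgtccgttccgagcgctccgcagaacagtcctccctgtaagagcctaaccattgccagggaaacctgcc

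GGAATG was in 5 of the 10 HOX windows (HOXC4 with HOXC5, HOXD4, HOXD8, HOXD10 and HOXD13), against 14% of the 35116 promoter windows of the table. The windows without it were those of HOXA2, HOXB1, HOXD1, HOXD11 and HOXD12, so most of the 10 came from HOXD. In HOXD10 the first base of GGAATG lay at -11 from the start, and in HOXD8 and HOXD4 at -136 and -192. The full element TGACGTCA was in 0 of 10 HOX windows, against 1.85% of all. Its core TGACG was in 3 (HOXB1, HOXD8 and HOXD11, the last with 2 copies), against 24.6%. The HOX windows held 4 CpG dinucleotides (HOXD4) to 36 (HOXD1), with a median of 21 against 14 over all promoters. TGATNNAT, a form of the joint HOX and PBX site, was in 3 HOX windows (HOXA2, HOXB1 and HOXD11), against 7.40% of all. A match is a run of letters only, and no binding was measured.

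Intensities are on a linear scale in arbitrary units. A value counted as above the floor when it exceeded 62.6, the median over every probe set and array, and as well above it past 4 times that. By this measure 16 of 28 HOX genes were above the floor on all 4 arrays, a share of 57.1% against 54.6% of all genes. These were HOXB3, HOXB5, HOXB6, HOXB7, HOXB8 and HOXB9 (6 of 10 in HOXB), HOXC4, HOXC6, HOXC9, HOXC10 and HOXC13 (5 of 9 in HOXC), and HOXD1, HOXD4, HOXD8, HOXD10 and HOXD11 (5 of 8 in HOXD). HOXB1, HOXB2, HOXB13, HOXC5, HOXC8, HOXC11, HOXD9 and HOXD13 were above it on some arrays. HOXA2, HOXB4, HOXC12 and HOXD12 were below it on every array, with intensities of 2.79 to 51.2. Some probe sets carry a suffix for matching more than 1 transcript, and without these 9 of 24 genes remained above the floor on all arrays.

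Well above the floor on all arrays were 5 of the 28 (HOXB3, HOXB7, HOXC4, HOXC6 and HOXD8), or 17.9%, against 40% of all genes. By position, 2 of 5 anterior genes (groups 1 to 3) were above the floor on all arrays, 8 of 11 central genes (groups 4 to 8) and 6 of 12 posterior genes (groups 9 to 13). The well-above genes were 1 anterior, 4 central and 0 posterior. These counts hold HOXA2 alone of the HOXA cluster, so they do not speak for its central or posterior genes. The central groups 6 and 7 had all their measured members (HOXB6, HOXC6 and HOXB7) above the floor on every array, while group 12 had neither HOXC12 nor HOXD12 above it on any. HOXB6, HOXC6 and HOXB7 were read above the floor only by probe sets of the shared kind, and the other HOXB6 probe set was below it throughout. Without shared probe sets, HOXB3 (anterior) and HOXC4, HOXD4 and HOXD8 (central) remained above the floor on all arrays. So did HOXB9, HOXC9, HOXC10, HOXD10 and HOXD11 (posterior), so the larger central share rests on shared probe sets. The grid of cluster by paralog group shows the counts by representative probe set.

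**Figure D1:**
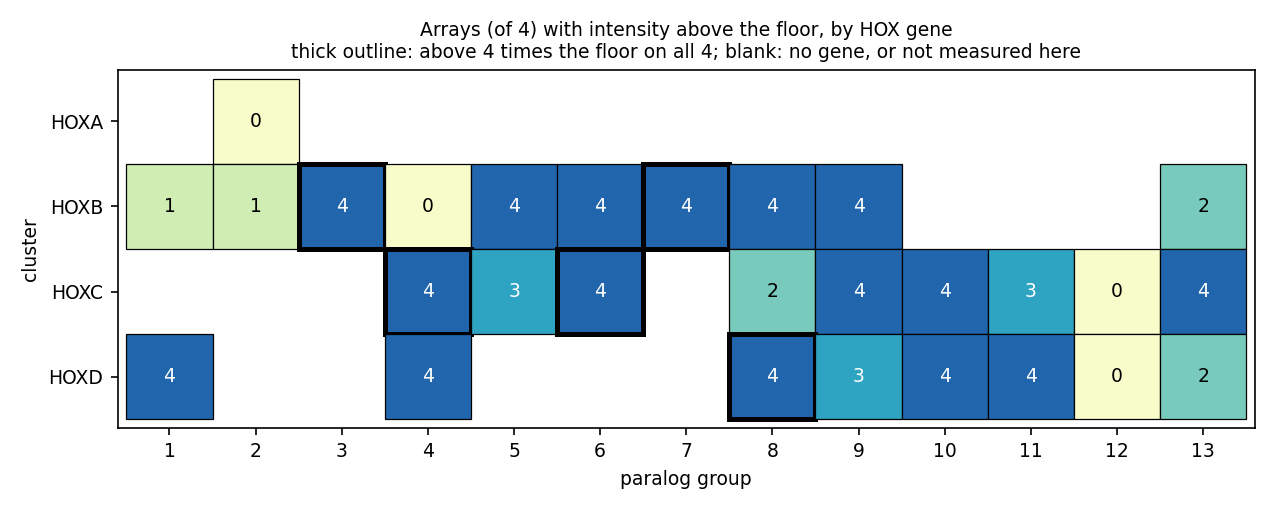
HOX genes by cluster (vertical) and paralog group (horizontal); the number and shade give on how many of the 4 arrays the gene's intensity was above the floor, a thick outline marks the 5 genes above 4 times the floor on all arrays, and blank cells hold no gene or one not measured here. Of the 28 genes, 16 have a 4, and those with a thick outline lie in groups 3, 4, 6, 7 and 8.

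Both siRNA targets had lower values after knockdown, YAP1 by 3.80-fold without and 3.38-fold with 8Br-cAMP and WWTR1, the gene for TAZ, by 5.22-fold and 6.11-fold. Of the 7 measured granulosa markers, 5 were above the floor on all arrays, FOXL2 and GATA4 among them, while FSHR and NR5A1 were below it on every array. Of the markers of other cells, KRT7 (epithelial), PECAM1 (endothelial) and INSL3 (theca) were above it on all arrays, PTPRC (leukocyte) on 1, and EPCAM, CDH1, CDH5, CYP17A1, DDX4 and DAZL on none. How far the probe sets of 1 gene disagreed about a difference, a measure of error that leaves out variation between cultures, had an SD on the log2 scale of 0.39 for knockdown without 8Br-cAMP and 0.54 with it, and of 0.37 for 8Br-cAMP with control siRNA and 0.53 after knockdown, for probe sets well above the floor. Between the floor and 4 times it, where most HOX genes lie, the SD was 0.47, 0.58, 0.51 and 0.54 in the same order. On the siYT+8Br-cAMP array the 3' probe set of ACTB exceeded its 5' probe set by a ratio of 1.35, and that of GAPDH by 1.13. On the rest of the arrays these ratios ran from 1.07 to 1.14 for ACTB and from 0.89 to 0.96 for GAPDH.

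By their representative probe sets, the 5 genes well above the floor differed by less than 2-fold in every comparison. Values are given throughout for siNC, then siNC+8Br-cAMP, then siYT, then siYT+8Br-cAMP. HOXB7, a central gene studied in several carcinomas, read 1901, 1820, 2316 and 1689. HOXC6, which helps to pattern the thoracic skeleton and mammary gland, read 1164, 1101, 1807 and 1141. For both genes siYT was the highest array, and for HOXC6 the other 3 lay close together. HOXB3, of the anterior hindbrain group, read 509, 550, 656 and 603. HOXC4 read 317, 337, 361 and 262. HOXD8, a central gene of the HOXD cluster, read 392, 352, 490 and 460. After knockdown without 8Br-cAMP all 5 were higher, by a median log2 difference of 0.32 (range 0.19 to 0.63), which is within the probe set spread of 0.39 for 4 of them and above it for HOXC6 (0.63, or 1.55-fold). Of all genes above the floor on all arrays, 51.8% were higher in that comparison, with a median of 0.02. A second HOXB3 probe set read 100.3, 89.4, 58.4 and 75.8 and went the other way, with a log2 difference of -0.68. A second HOXB7 probe set read 1797, 2032, 2575 and 1096. It passed 2-fold with 8Br-cAMP after knockdown, at log2 -1.23, while a further HOXB7 probe set gave -0.33.

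**Figure D2:**
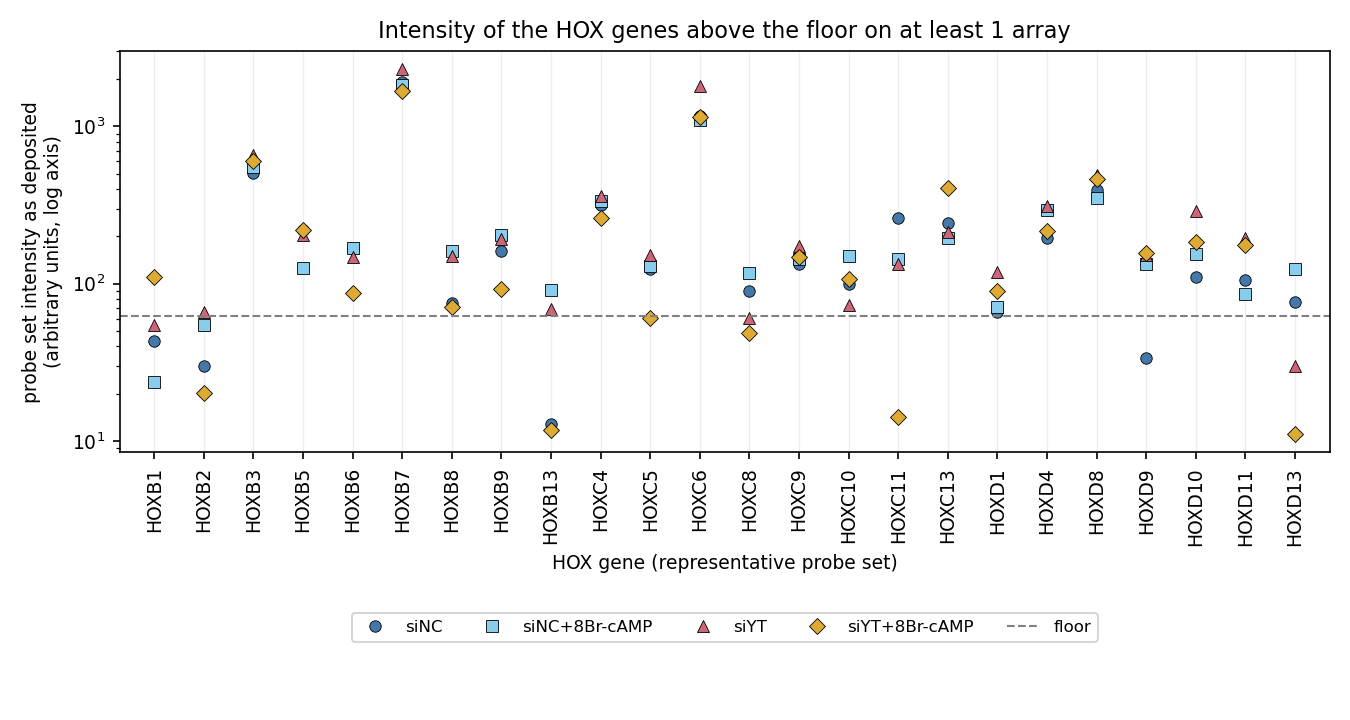
Intensity as deposited (log axis, arbitrary units) of the representative probe set of each of the 24 HOX genes that exceeded the floor on 1 or more arrays, by array; the dashed line is the floor of 62.6. The 4 points of HOXB3, HOXC4 and HOXD8 lie close together, whereas HOXB8, HOXC11 and HOXD9 spread around or down to the floor.

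Knockdown of YAP and TAZ was asked about in a pair of comparisons that share no array, siYT with siNC and siYT+8Br-cAMP with siNC+8Br-cAMP. A gene was called at 2-fold (a log2 difference of 1) among the 24 HOX genes that exceeded the floor on 1 or more arrays, after values below the floor were set to it. Where 1 of the arrays compared was at the floor, the fold is only a lower bound, marked by the words at least. Without 8Br-cAMP, 3 of 24 were higher (HOXB8, HOXD9 and HOXD10), against 7.3% of the 14427 genes tested, and 0 were lower, against 6.05%. With 8Br-cAMP, 2 were higher (HOXC13 and HOXD11), against 6.74%, and 4 were lower (HOXB8, HOXB9, HOXC5 and HOXC11), against 9.48%. Not 1 of the 24 passed 2-fold the same way in both, against 5.19% of all genes. At 1.5-fold HOXC11 (lower) and HOXD11 (higher) did, and HOXC11 did at 2-fold after cyclic loess or quantile normalization between arrays. Most tested HOX genes (17 of 24) had a mean under 4 times the floor. Among genes that low, 3 of 17 HOX genes passed 2-fold in either direction without 8Br-cAMP against 11%, and 5 of 17 with it against 14.4%.

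The HOXD cluster, which patterns the limbs, the vertebral column and the urogenital tract, had the largest share of its tested members higher after knockdown, 6 of 7 without and 5 of 7 with 8Br-cAMP, against 6 of 9 and 3 of 9 in HOXB and 4 of 8 and 3 of 8 in HOXC. Of all genes tested 47.9% and 46.9% were higher. HOXD11, of the posterior end, read 106, 85.4, 195 and 175. Both knockdown arrays were above both control siRNA arrays, by 1.83-fold without and 2.05-fold with 8Br-cAMP. HOXD10, its neighbour and a gene of limb and lumbosacral nerve patterning, read 111, 154, 288 and 183. It was 2.60-fold higher without 8Br-cAMP and 1.19-fold with it, the siYT array standing highest. A second HOXD10 probe set read 4.19, 27.5, 47.1 and 71.9, and another 16.8, 44.8, 55.3 and 70.9. They were above the floor only on the siYT+8Br-cAMP array and give no measured fold for the comparison without 8Br-cAMP. HOXD9, next in the row, read 33.6, 133, 152 and 158. Only the siNC array was below the floor, so HOXD9 was at least 2.43-fold higher after knockdown without 8Br-cAMP, and 1.19-fold when it was present, and its second probe set was below the floor on all arrays.

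HOXD1, of the anterior end, read 66.3, 71.3, 119 and 89.4, near the floor on the control arrays. It was 1.79-fold and 1.25-fold higher after knockdown, by a probe set of the shared kind, and its other probe set was below the floor on every array. HOXD8 was 1.25-fold and 1.31-fold higher. HOXD4, whose group helps to pattern the neck vertebrae, read 195, 295, 313 and 217. It was 1.61-fold higher after knockdown without 8Br-cAMP and 1.36-fold lower with it, so its direction was not shared. A second HOXD4 probe set, of the shared kind, read 70.7, 69.8, 88.6 and 46.8, the last below the floor. Its log2 differences after knockdown were 0.33 and -0.16, the same in direction but smaller than the 0.68 and -0.44 of the representative. HOXD13, the digit-patterning gene at the posterior end, read 76.6, 123, 29.9 and 11. It went the other way from its neighbours, at least 1.22-fold and at least 1.97-fold lower, from values close to the floor. Its other probe sets were above the floor on siNC alone, so they show no difference for knockdown with 8Br-cAMP.

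Both knockdown arrays lay above both control siRNA arrays for 5 of the 7 tested HOXD genes (HOXD1, HOXD8, HOXD9, HOXD10 and HOXD11), against 19.5% of all genes tested. For HOXB this held for 1 of 9 (HOXB3) and for HOXC for 1 of 8 (HOXC9). With 8Br-cAMP the log2 differences of HOXD1, HOXD8, HOXD9 and HOXD10 (0.33, 0.39, 0.25 and 0.25) were within the probe set spread of 0.54 to 0.58. That of HOXD11 (1.04) was above it. Without 8Br-cAMP, of these HOXD genes HOXD8 (0.32) alone was within the spread of 0.39 to 0.47. HOXD8 and HOXD11 were read by 1 probe set each. The reverse, both knockdown arrays below both control siRNA arrays, held for 4 of the 24 (HOXB6, HOXC8, HOXC11 and HOXD13), against 19.3%. The median log2 difference of the 7 HOXD genes was 0.84 without and 0.25 with 8Br-cAMP, against 0 over all genes in each. The counts of HOXD genes that were higher were the same after cyclic loess and quantile normalization. With each HOXD gene averaged over its probe sets, the medians were 0.46 and 0.16. The HOXD cluster was singled out after the values of the clusters were seen, so these counts describe these arrays.

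Of the genes next to HOXD, MTX2, a mitochondrial outer membrane protein whose gene lies beyond the anterior end, read 5020, 4856, 4849 and 4681 and was 1.04-fold lower in both knockdown comparisons. LNPK, an endoplasmic reticulum junction protein whose gene lies beyond the posterior end of the cluster, was read by 3 probe sets that differed. Its representative read 466, 725, 1387 and 1661 and was 2.98-fold and 2.29-fold higher after knockdown. The others gave log2 differences of 0.86 and -1.47, and of 1.25 and -0.14, so without 8Br-cAMP all 3 were higher and with it they went both ways. HAGLR, an antisense RNA within HOXD, read 188, 186, 297 and 101, and HOXD-AS2, another, read 369, 197, 295 and 303. Neither had both knockdown arrays on the same side of both controls.

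In HOXC, HOXC11 was lower in both knockdown comparisons. HOXC11, a posterior gene of kidney and hindlimb patterning, read 260, 145, 133 and 14.2. It was 1.96-fold lower after knockdown without 8Br-cAMP and at least 2.31-fold lower with it, the last array being below the floor, and it was read by 1 probe set. HOXC10, of lumbar motor neurons and adipose depots, read 98.9, 151, 73.3 and 108. It was 1.35-fold and 1.40-fold lower after knockdown, less than the probe set spread, although the knockdown array with 8Br-cAMP was above the control array without it. HOXC8 read 90.1, 117, 60.7 and 48.2 and was at least 1.44-fold and at least 1.86-fold lower. HOXC9 read 133, 143, 174 and 148 and was 1.30-fold and 1.03-fold higher.

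HOXC13, known for its part in hair and nail keratin expression, read 243, 196, 213 and 406. Only the siYT+8Br-cAMP array stood apart, which gave 2.07-fold higher for knockdown with 8Br-cAMP and 1.14-fold lower without it. HOXC13 was read by 1 probe set, of the shared kind. HOXC5 read 123, 129, 151 and 60.6 and was 1.23-fold higher and then at least 2.06-fold lower. The first 3 arrays lay close together and the last was at the floor. HOTAIR, the long noncoding RNA transcribed antisense within HOXC and known for recruiting Polycomb, read 387, 843, 800 and 698. The siNC array was the lowest, so HOTAIR was 2.07-fold higher after knockdown without 8Br-cAMP and 1.21-fold lower with it.

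In HOXB, HOXB8, a gene of blood and spinal cord development, read 75, 162, 150 and 71.3. Each treatment alone gave the higher value and the combination the lower, so it was 2.0-fold higher after knockdown without 8Br-cAMP and 2.27-fold lower with it. It was near the floor on both outer arrays, its probe set is of the kind shared between transcripts, and its other probe set was below the floor on all arrays. HOXB9, of the thoracic ribs, read 162, 204, 191 and 92.3 and was 1.18-fold higher and then 2.21-fold lower. Its second probe set read 130, 106, 136 and 116 and did not follow, at log2 0.07 and 0.12. HOXB6 read 165, 168, 148 and 87.2, 1.11-fold and 1.93-fold lower, and its other probe set was below the floor on every array. HOXB5, of the lung and gut, read 219, 126, 205 and 220, and the siNC+8Br-cAMP array was the low one in both of its probe sets, the second reading 145, 42.5, 147 and 139. Both HOXB5 probe sets are of the shared kind.

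**Figure D3:**
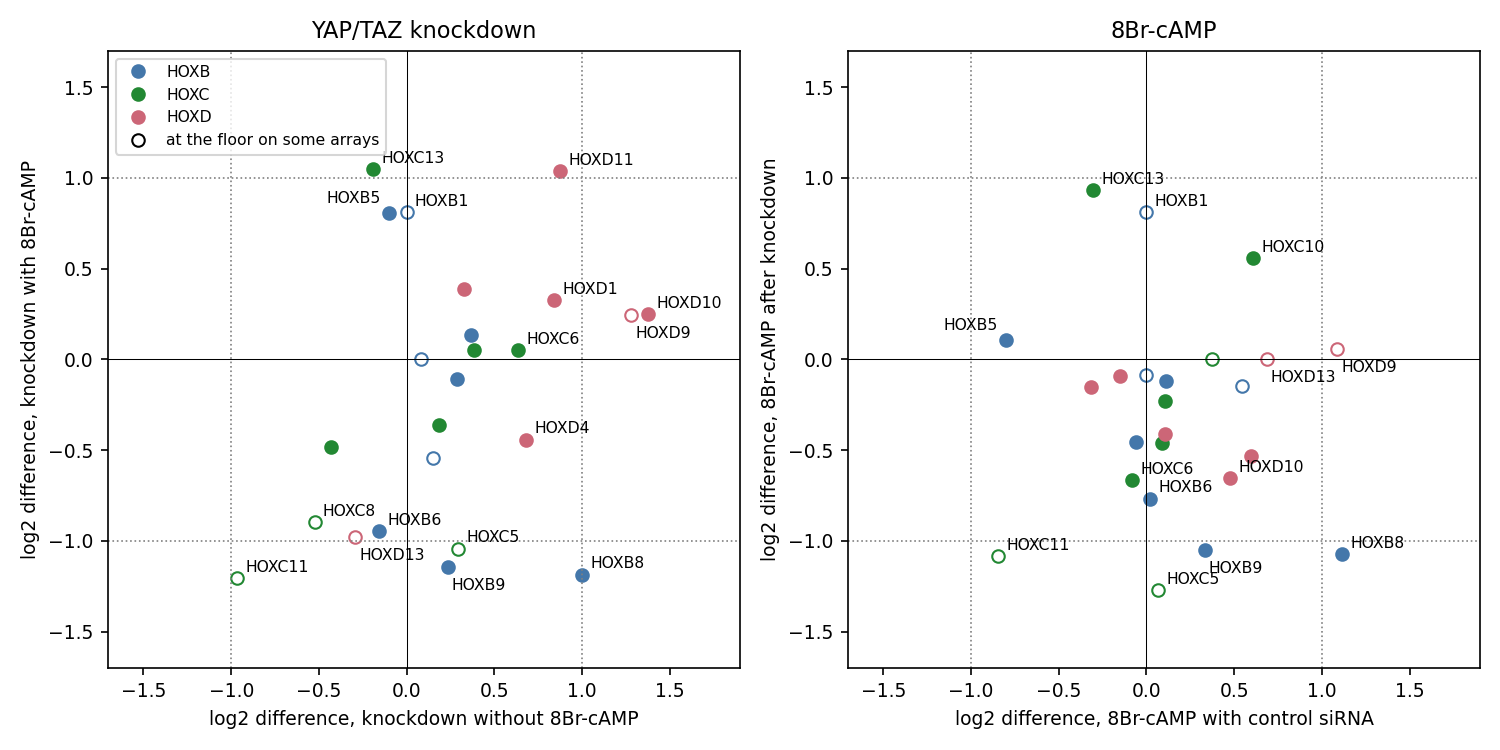
Log2 differences of the 24 tested HOX genes, coloured by cluster, with knockdown without (horizontal) and with 8Br-cAMP (vertical) on the left, and 8Br-cAMP with control siRNA (horizontal) and after knockdown (vertical) on the right; dotted lines mark 2-fold and open points were at the floor on some arrays. On the left most HOXD genes lie to the right of 0, and in neither panel does a point pass 2-fold in the same direction on both axes.

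The 8Br-cAMP comparisons were siNC+8Br-cAMP with siNC and siYT+8Br-cAMP with siYT, and they share their arrays with the knockdown comparisons above, so the same values enter both. With control siRNA, 2 of 24 HOX genes were 2-fold higher (HOXB8, and HOXD9 from below the floor), against 4.34% of all genes, and 0 were lower, against 5.22%. After knockdown, 0 were higher, against 5%, and 4 were lower (HOXB8, HOXB9, HOXC5 and HOXC11), against 9.88%. Not 1 of the 24 passed 2-fold the same way in both, against 3.54%. Among low genes, 2 of 17 and 4 of 17 passed in either direction, against 8.95% and 12.9%.

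Taken gene by gene, HOXB8 was 2.16-fold higher with control siRNA and 2.11-fold lower after knockdown. HOXD9 was at least 2.13-fold higher and then 1.04-fold higher. HOXC11 was lower in both, by 1.8-fold and at least 2.12-fold, and passed 1.5-fold in both. HOXC10 was the single member with both 8Br-cAMP arrays above both arrays without it (16.2% of all genes), by 1.52-fold and 1.47-fold, each near the probe set spread. HOXB7 and HOXC6 had both 8Br-cAMP arrays below both others (17.6% of all genes), HOXC6 by 1.06-fold and 1.58-fold and HOXB7 by 1.04-fold and 1.37-fold. For HOXB7 this separation held in the representative probe set only, and in neither of its other probe sets. The other HOXB7 probe sets gave log2 differences after knockdown of -1.23 and -0.33, against -0.46 for the representative, a disagreement drawn in the plot of separate probe sets. HOXC5 was 1.05-fold higher and then at least 2.41-fold lower, and HOXB9 1.26-fold higher and then 2.07-fold lower. HOXC13 was 1.24-fold lower and then 1.91-fold higher, and its log2 difference after knockdown of 0.93 became 1.12 after cyclic loess and 1.15 after quantile normalization, past 2-fold.

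After knockdown 17 of the 24 HOX genes were lower with 8Br-cAMP, 5 higher and 2 at the floor on both arrays, with a median log2 difference of -0.19. Of all genes tested 48.5% were lower, with a median of 0. This split depended on the scaling between arrays, since 10 HOX genes were higher after cyclic loess and 8 after quantile normalization, and the medians became -0.10 and -0.08. Among genes above the floor on all arrays, the small differences of HOXB3, HOXD8 and HOXD11 (-0.12, -0.09 and -0.15) became 0.02, 0.08 and 0.07 after quantile normalization. With control siRNA, 15 HOX genes were higher and 7 lower, with a median of 0.10, while of all genes 46.7% were higher and 44.1% lower. All the HOX genes called 2-fold lower in any comparison were called against the siYT+8Br-cAMP array, whose 3' to 5' ratios were the highest of the 4. The part of that array's RNA quality in these calls was not tested.

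**Figure D4:**
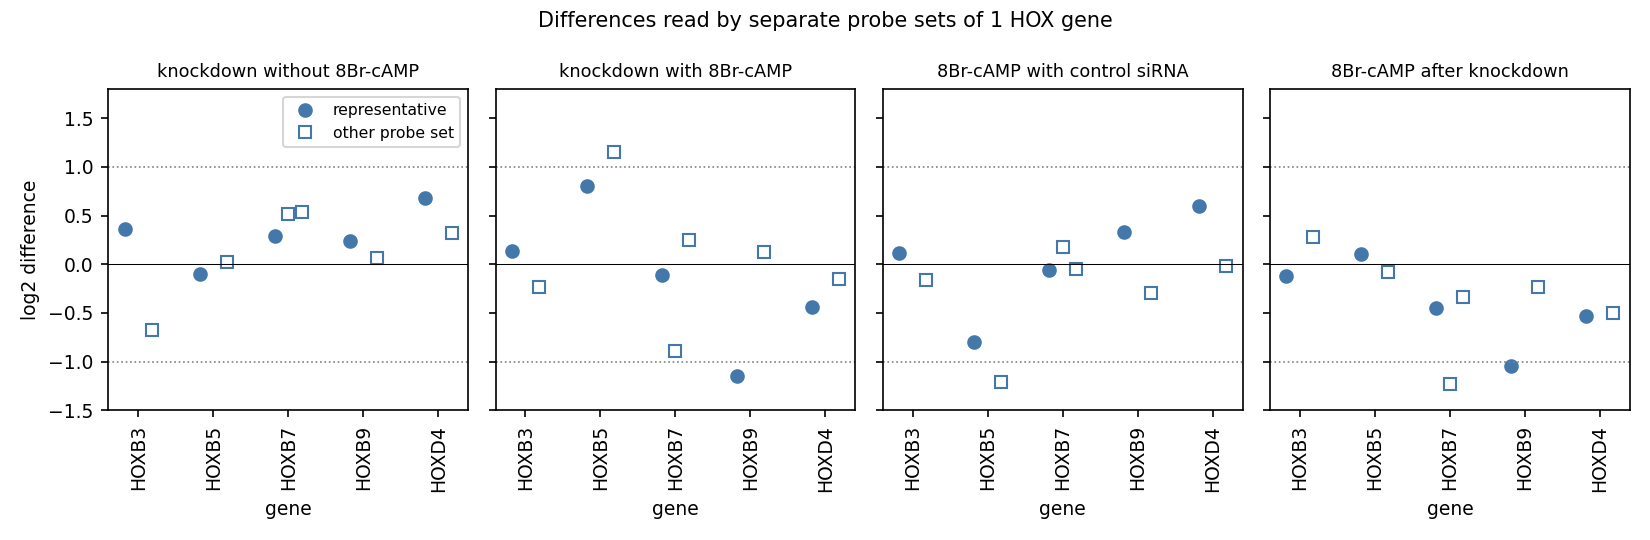
Log2 differences in the 4 comparisons read by separate probe sets of HOXB3, HOXB5, HOXB7, HOXB9 and HOXD4, for probe sets above the floor on at least 3 arrays; filled circles are the representative and open squares the others, and dotted lines mark 2-fold. The HOXB5 probe sets lie near each other in each panel, whereas those of HOXB9 and HOXB7 are apart in the comparisons with the siYT+8Br-cAMP array.

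An additive limma fit of knockdown and 8Br-cAMP over the 4 arrays and 14427 genes, with 1 residual degree of freedom, called 0 of the 24 HOX genes for either factor at an adjusted p of 0.05 (Benjamini-Hochberg), against 3.47% of all genes for knockdown and 1.16% for 8Br-cAMP. The lowest adjusted p of a HOX gene was that of HOXC11 in this limma fit, 0.195 for knockdown and 0.306 for 8Br-cAMP. At an unadjusted p under 0.05 it had 3 HOX genes for knockdown (HOXC8, HOXC11 and HOXD11), against 20.0% of all genes, and 1 for 8Br-cAMP (HOXC11), against 16.1%. On simulated arrays the fit for knockdown over 14427 genes recovered 13% of genes changed by log2 1.5 and 99% of those changed by log2 3. Recovery at the low intensities of most HOX genes, of which 17 of 24 had a mean under 4 times the floor, was not tested.

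Of the TALE partners of the HOX proteins, 5 of 8 measured list members were above the floor on all arrays, against the 54.6% of all genes given above. PBX2 read 408, 558, 477 and 415 and PBX3 584, 328, 518 and 445. MEIS2 read 633, 795, 745 and 876, with all 4 values close together, and PKNOX1 245, 344, 355 and 293. MEIS3 read 334, 295, 584 and 191 and was 3.06-fold lower with 8Br-cAMP after knockdown, the single cofactor above the floor throughout that passed 2-fold. PKNOX2, above the floor on the knockdown arrays alone, was at least 2.10-fold higher without 8Br-cAMP. None of the list passed 2-fold the same way in both comparisons of a factor.

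The Polycomb list, which maintains HOX silencing, had 23 of 23 measured members above the floor on all arrays, against 54.6% of all genes. PHF19, a Polycomb-like subunit that binds H3K36-methylated histone, read 912, 748, 262 and 336 and was 3.48-fold and 2.23-fold lower after knockdown, the single member of 23 past 2-fold the same way in both, against 5.19% of all genes. AEBP2, a cofactor of the H3K27 methyltransferase complex, read 1637, 764, 1947 and 896 and was 2.14-fold and 2.17-fold lower with 8Br-cAMP, again 1 of 23, against 3.54%. In the Trithorax and demethylase list, 13 of 13 were above the floor, and PSIP1, which tethers the KMT2A and menin complex to chromatin, read 10006, 6360, 4617 and 1467, that is 2.17-fold and 4.34-fold lower after knockdown, 1 of 13 against 5.19%. No other member of either list passed 2-fold the same way in both comparisons of a factor.

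Of the retinoic acid list, 11 of 14 measured members exceeded the floor on 1 or more arrays, against 73.0% of all genes. Of these 11, 4 passed 2-fold the same way in both 8Br-cAMP comparisons, against 3.54%. DHRS3, which reduces retinal back to retinol, read 648, 3319, 1552 and 5232 and was 5.12-fold and 3.37-fold higher. CYP26B1, which degrades retinoic acid, read 4.92, 599, 4.86 and 179, at least 9.56-fold and at least 2.86-fold higher. RARB, a receptor and itself a retinoic acid target, read 37.9, 191, 14.2 and 172, at least 3.05-fold and at least 2.74-fold higher, but when its probe set was picked by mean intensity, and also without shared probe sets, its log2 difference after knockdown was -0.070, so this call rests on the choice of probe set. ALDH1A3, which makes retinoic acid, read 311, 88, 347 and 95.7, 3.53-fold and 3.62-fold lower. The anterior HOX genes are known retinoic acid targets, and a link between them and these changes was not tested. With 8Br-cAMP, HOXB3 and HOXD1 were 1.08-fold higher with control siRNA and 1.09-fold and 1.33-fold lower after knockdown. HOXA2, HOXB1 and HOXB2 were below the floor on both control siRNA arrays and give no fold there. HOXB2 read 29.8, 54.7, 66.4 and 20.3, at least 1.06-fold lower with 8Br-cAMP after knockdown. HOXB1, a hindbrain gene, read 43.5, 23.8, 54.6 and 109.8, so it was at least 1.75-fold higher with 8Br-cAMP after knockdown. This rests on the siYT+8Br-cAMP array alone, and the second HOXB1 probe set was below the floor on all arrays. ParaHox and upstream homeobox genes (CDX1, CDX2, CDX4, GSX1, PDX1 and GBX2) were below the floor on all arrays, and GSX2 was above it on siNC alone.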

How the data were processed

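Biotin-labelled cRNA from total RNA of KGN cells was hybridised to 1 array per group. Per the submitters' processing notes the authors used Affymetrix Expression Console and RMA (in the sources used here, versions are not given). The deposited values are probe set intensities on a linear scale, with a 2% trimmed mean of 499.9 on each array, which RMA output would not show, so the background correction and summary behind them stay unknown and low values are uncertain. Values below 62.6 (log2 5.97) were set to that floor and log2 was taken, with no further normalization. Of 54675 probe sets, 41097 had 1 symbol, 1801 several and 11777 none here. The probe set with the highest mean of these log2 values stood for each of 19775 genes, and the 14427 that exceeded the floor on 1 or more arrays were tested by size (2-fold). All 28 HOX symbols matched RefSeq by gene identifier. The number of arrays limits the precision.

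The design allowed for log2 or linear values. The design's highest mean was taken over the floored log2 values, a choice made after results by mean intensity had been seen, and mean intensity was kept as an alternative (14361 genes tested, 23 of them HOX). The text names every HOX gene above the floor on all arrays or at 2-fold in 1 comparison, the cofactors above the floor throughout, list members at 2-fold the same way in both comparisons of a factor, and the siRNA targets. Genes outside this rule, and TGATNNAT, were chosen after their values were seen. The HOX genes and all lists were chosen with earlier results of these data known. limma 3.58.1 (R 4.3.3) was run with trended, robust variance shrinkage, a setting chosen on simulated data (SD 0.4 per array, without variation between cultures) with its real call counts also in view. Summaries used Python 3.11.15 with pandas 2.3.3 and figures matplotlib 3.10.9. Alternatives were no floor, a floor at the 75th percentile (388.7), the mean over probe sets, leaving out shared probe sets, cyclic loess, quantile normalization, leaving out the siYT+8Br-cAMP array, 1.5-fold and the limma fit.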

Additional observations from a re-analysis of the deposited data

Results flagged for a closer look

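HOXB8 moved in opposite directions under the same treatment in the 2 backgrounds. Its log2 difference after knockdown was 1.00 without and -1.19 with 8Br-cAMP, and with 8Br-cAMP it was 1.11 after control siRNA and -1.08 after knockdown. With 1 array per group the difference between these effects was not tested, and the 4 values use the same 4 arrays. The lower arrays were close to the floor of 62.6. The HOXB8 probe set used is of the shared kind, and the other was below the floor on all arrays. For knockdown without 8Br-cAMP the log2 difference was 0.90 after cyclic loess, 0.79 after quantile normalization and 0.50 as the mean over probe sets. With 8Br-cAMP it was -0.59 as that mean. After cyclic loess HOXB8 was no longer at 2-fold for 8Br-cAMP after knockdown.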

How the results depend on the processing

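No paired analysis was possible because each group held 1 array and the labels give no replicate numbers, and for the same reason no replicate could be left out within a group. The count of HOX genes above the floor on all arrays (16) was 3 with the floor at the 75th percentile, 9 without shared probe sets and 5 at 4 times the floor, and it was 18 without the siYT+8Br-cAMP array. For knockdown without 8Br-cAMP the 3 HOX genes at 2-fold became 6 without a floor, 0 with the higher floor (5 genes tested), 0 with the mean over probe sets and 8 at 1.5-fold. After cyclic loess or quantile normalization the count stayed at 3, but HOXC11 (lower) took the place of HOXB8 (higher). For knockdown with 8Br-cAMP the 6 became 11 without a floor, 0 with the higher floor and 11 at 1.5-fold. For 8Br-cAMP with control siRNA the 2 became 0 with the higher floor, 1 with the mean over probe sets (HOXB5, lower, neither of the original 2), 1 without shared probe sets (HOXD9) and 7 at 1.5-fold. For 8Br-cAMP after knockdown the 4 became 8 without a floor, 0 with the higher floor, 2 with the mean over probe sets, 2 after cyclic loess (HOXC5, lower, and HOXC13, higher and not among the 4) and 9 at 1.5-fold. After quantile normalization they were 3 (HOXB8, HOXC5 and HOXC13), without HOXB9 and HOXC11. HOX genes at 2-fold the same way in both knockdown comparisons (0) became 1 without a floor (HOXD13), 1 after cyclic loess and 1 after quantile normalization (HOXC11 in each), and 2 at 1.5-fold, and in both 8Br-cAMP comparisons (0) 1 at 1.5-fold. The higher floor leaves fewer genes to test, and the other causes were not tested. Reversed were LNPK for knockdown with 8Br-cAMP (log2 -0.14 as the mean over probe sets) and RARB for 8Br-cAMP after knockdown (log2 -0.070 without shared probe sets or by the probe set of highest mean intensity). The rule of highest mean intensity left all 7 HOX counts at 16, 3, 6, 2, 4, 0 and 0. The alternatives of 4 times the floor, of the low-level background and of highest mean intensity were chosen after seeing the data. Cyclic loess and no floor gave no value for the count above the floor, since it needs the floor on unscaled values. Most HOX signals lie within 4 times the floor, which limits every fold given here.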

Other observations

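HOXD3 was read here only by 3 probe sets that also carry HOXD4 and LOC401021. Of these, 1 read 59.7 and 72.7 on the control siRNA arrays without and with 8Br-cAMP and 102 and 12.4 on the knockdown arrays in that order, and the other 2 were below the floor on all arrays. SKAP2, a Src kinase adaptor whose gene lies next to HOXA, read 2193, 3513, 4029 and 8953 on the control siRNA arrays and then the knockdown arrays. It was 1.84-fold and 2.55-fold higher after knockdown, and 1.60-fold and 2.22-fold higher with 8Br-cAMP.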
